A study of Mus musculus with 14 samples.

Results

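The cell cycle and DNA replication genes described here are 47 genes chosen by name, 22 that act at the G1/S transition and in S phase (the S phase genes below) and 25 that act in G2 and mitosis (the G2/M genes). All 47 were found by gene symbol in both deposited tables, which hold 14330 gene rows for glycerol injury and 56953 for BaCl2 injury. They were measured by poly(A) RNA sequencing in fibro-adipogenic progenitors (FAPs), the mesenchymal stromal cells of skeletal muscle, taken from the tibialis anterior (TA) muscle of mice 3 days after injury by a magnetic sort (MACS). Glycerol injury, which is followed by regeneration with fat, had 4 libraries labelled SMA and 4 labelled WT (wild type), where SMA was taken to mean spinal muscular atrophy. BaCl2 injury, in which a barium salt kills muscle fibres, had 3 SMA and 3 WT libraries. All 4 groups are injured muscle at the same day, and uninjured cells were not analysed here. The SMA allele, the age, sex and strain of the mice and the antibodies of the sort are not named in the labels. In the labels the batch carries the name of the injury, so the injury and the batch cannot be told apart. Separate animals are not stated for the replicates, so p-values measure the spread among these libraries, part or all of which may be technical.

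Cells that enter the cell cycle switch on their genes in waves. At the G1/S transition, E2F transcription factors turn on the genes that license replication origins, unwind DNA and supply nucleotides. Later, B-MYB with the MuvB complex and FOXM1 turn on the genes for entry into mitosis, the spindle and cell division, many of which carry a promoter element called CHR (cell cycle genes homology region). FAPs are known to divide in the first days after muscle injury, before their number declines again. RNA of a mixed set of cells shows both how many cells are cycling and how much each holds, and fewer cells of a type and less RNA per cell cannot be told apart here.

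The glycerol values, normalized by the authors, summed to 71.4 to 76.6 M (mega) per library with unknown depth, and the BaCl2 libraries held 97.7 to 136.4 M counts. Smn1, the mouse gene of the survival motor neuron protein, had 640 to 806 normalized counts in SMA and 935 to 1209 in WT libraries after glycerol. After BaCl2 it had 9.995 to 11.96 counts per M of the library (CPM) in SMA and 15.3 to 17.2 CPM in WT libraries, so the groups did not overlap after either injury. None of 12 FAP markers was at 0 in any glycerol library or throughout the BaCl2 libraries. Their summed level was 3371010 to 4257990 normalized counts in SMA and 3305740 to 4695220 in WT libraries after glycerol, and 41190 to 54233 CPM in SMA and 61368 to 67928 CPM in WT libraries after BaCl2. Col1a1 and Col3a1 made up most of the BaCl2 sum, with 17388 and 19158 CPM in SMA library 1 and 27273 and 28461 CPM in WT library 1. After BaCl2 11 of the 12 markers had a negative log2 fold change (SMA over WT), 5 of them at an edgeR adjusted p under 0.05. Pdgfra, Osr1 and Cd34 were near 0, at -0.04, -0.05 and -0.07. Genes of other cell types were also present and are given beside the results.

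In SMA FAPs the S phase and G2/M genes stood differently against WT after the 2 injuries. After glycerol, log2 fold changes (SMA over WT) of the G2/M genes were negative for 25 of 25 with a median of -0.30, and those of the S phase genes for 21 of 22 with a median of -0.24. After BaCl2, the S phase genes were positive for 22 of 22 with a median of 0.21, while the G2/M genes centred on 0.01, with 14 positive and 11 negative. The median over all genes tested was -2.03e-05 after glycerol and -0.0028 after BaCl2. Few single members passed the test across all genes. After glycerol 2 of 25 G2/M genes (Foxm1 and Hmmr) fell at a limma adjusted p under 0.05 and 0 of 22 S phase genes changed (12 at an unadjusted p under 0.05, 2 in the authors' deposited table), where 1.17% of all 14330 genes fell, 1.7% rose and 2.87% changed in either direction. An unadjusted p under 0.05 was reached by 23.3% of all genes, and the authors' deposited table has 734 of 14075 genes negative. After BaCl2 4 of 22 S phase genes (Cdc6, Mcm3, E2f8 and Cdc45) rose at an edgeR adjusted p under 0.05 and 0 of 25 G2/M genes changed (2 at an unadjusted p under 0.05, 0 by DESeq2), where 2.73% of 20119 genes rose, 1.56% fell and 4.29% changed in either direction.

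**Figure D1:**
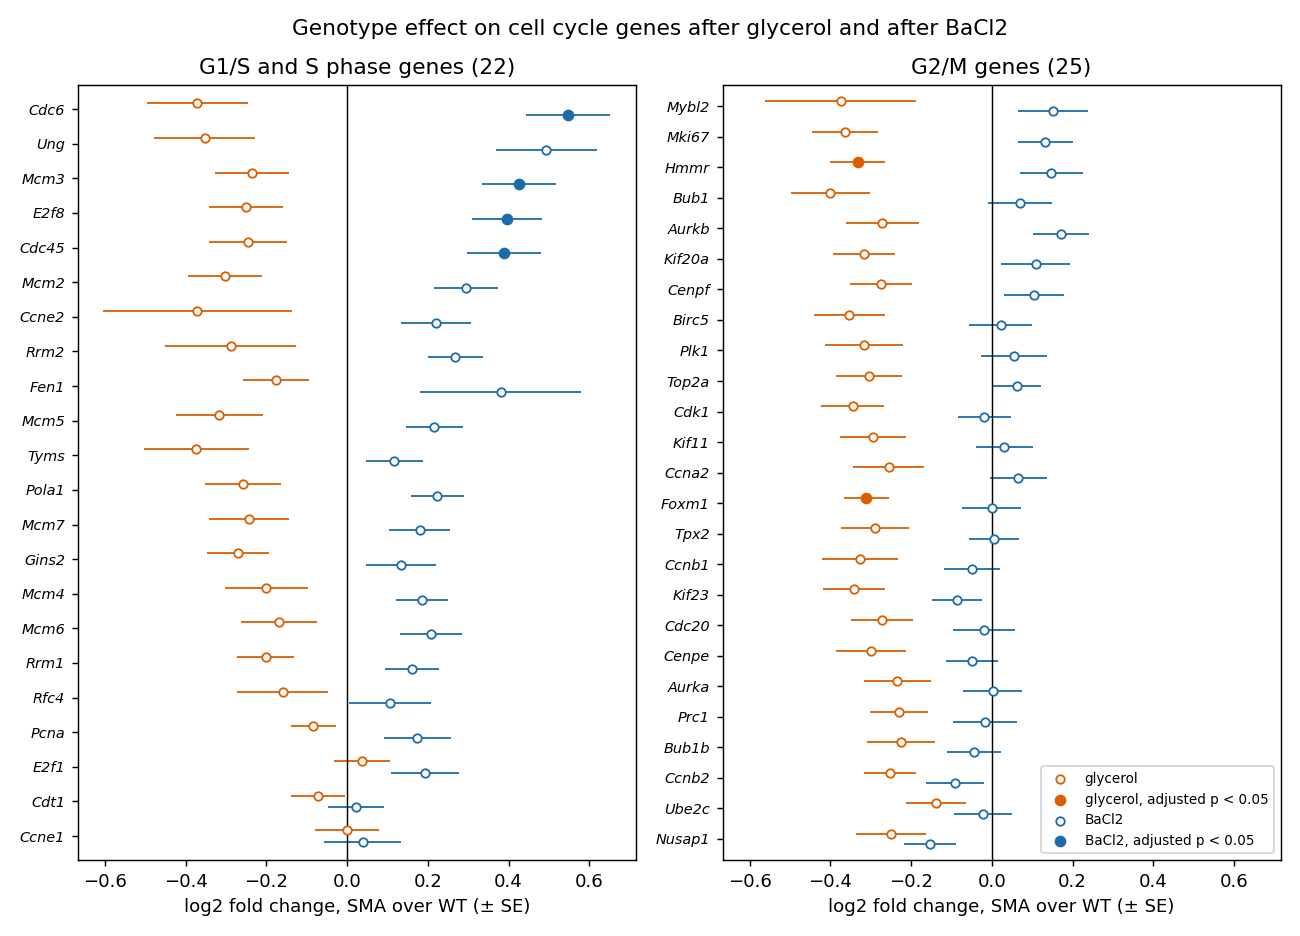
Log2 fold change of SMA over WT with its standard error for the 22 S phase genes (left) and the 25 G2/M genes (right), after glycerol (orange, 4 libraries per genotype) and BaCl2 (blue, 3 per genotype). Filled points passed an adjusted p of 0.05; all 25 G2/M points after glycerol lie below 0 and all 22 S phase points after BaCl2 lie above it.

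The levels in single libraries show how evenly these patterns were carried. The level of a set in a library is the mean over its genes of the log2 value relative to the WT mean of the same injury. After glycerol the G2/M level was -0.16, -0.40, -0.16 and -0.46 in SMA libraries 1 to 4, against 0.05, -0.05, 0.04 and -0.04 in WT libraries 1 to 4. All 4 SMA libraries lay below the WT libraries, with SMA libraries 2 and 4 lowest. The S phase level after glycerol was -0.08, -0.27, -0.14 and -0.39 in the SMA libraries, against 0.07, -0.12, 0.10 and -0.04 in the WT libraries, and WT library 2 lay below SMA library 1. After BaCl2 the S phase level was 0.37, 0.17 and 0.18 in SMA libraries 1 to 3, against -0.03, 0.03 and -0.0032 in the WT libraries. The G2/M level after BaCl2 was 0.10, -0.08 and 0.04 in SMA libraries, against -0.03, -0.0062 and 0.03 in WT libraries. The S phase levels therefore did not overlap after BaCl2, and the G2/M levels did.

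**Figure D2:**
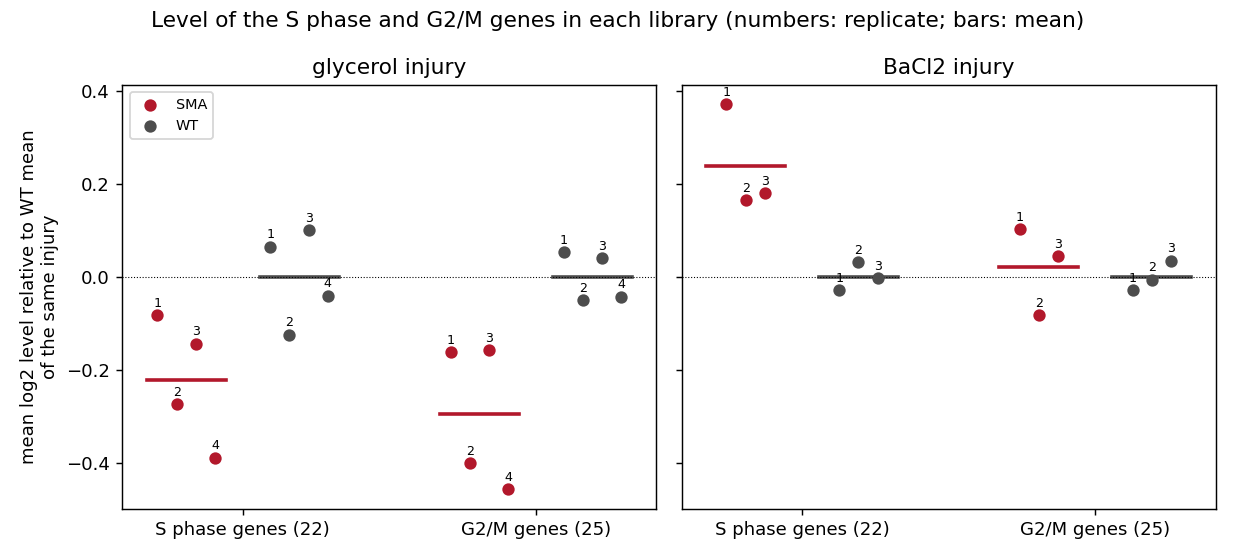
Mean log2 level of the 22 S phase and 25 G2/M genes in each library, relative to the WT mean of the same injury, for SMA (red) and WT (grey); points are libraries with their replicate number and bars are group means. After glycerol the SMA libraries reach down to -0.46 for the G2/M genes, and after BaCl2 the SMA libraries stand at 0.17 to 0.37 for the S phase genes.

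The S phase level minus the G2/M level sets the replication genes against the mitotic ones within a library. After glycerol it was 0.08, 0.13, 0.01 and 0.07 in SMA libraries, against 0.01, -0.07, 0.06 and 0.0021 in WT libraries, which overlap. After BaCl2 it was 0.27, 0.25 and 0.14 in SMA libraries, against -0.00021, 0.04 and -0.04 in WT libraries, with no overlap.

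Promoters of the S phase genes that differed most are shown because E2F factors, which drive this set, bind a short DNA word. The 4 with the smallest p in either injury are printed as RefSeq gives them for build GRCm38.p6, 250 bases before to 50 bases after the start of the gene on its own strand. Capitals mark the words searched on both strands, TTTGGCGC, TTTCCCGC and TTTCGCGC for E2F, CCAAT, and TTTGAA for CHR, or their reverse complements. They lie at chr11:98907901-98908200 on the plus strand (Cdc6), chr1:20820263-20820562 on the minus strand (Mcm3), chr7:48881547-48881846 on the minus strand (E2f8) and chr16:18811923-18812222 on the minus strand (Cdc45).
Cdc6: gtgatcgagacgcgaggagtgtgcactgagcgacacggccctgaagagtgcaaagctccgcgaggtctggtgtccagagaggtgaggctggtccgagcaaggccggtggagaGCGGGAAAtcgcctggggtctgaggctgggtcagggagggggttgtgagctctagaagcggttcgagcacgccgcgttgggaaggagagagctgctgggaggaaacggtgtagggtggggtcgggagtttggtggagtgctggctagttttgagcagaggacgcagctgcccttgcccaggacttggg
Mcm3: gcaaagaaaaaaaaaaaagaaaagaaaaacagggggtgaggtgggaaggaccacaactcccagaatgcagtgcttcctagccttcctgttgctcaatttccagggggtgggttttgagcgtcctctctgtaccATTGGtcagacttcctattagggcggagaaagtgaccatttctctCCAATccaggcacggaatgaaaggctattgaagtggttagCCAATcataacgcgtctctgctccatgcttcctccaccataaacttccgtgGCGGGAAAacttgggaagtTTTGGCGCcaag
E2f8: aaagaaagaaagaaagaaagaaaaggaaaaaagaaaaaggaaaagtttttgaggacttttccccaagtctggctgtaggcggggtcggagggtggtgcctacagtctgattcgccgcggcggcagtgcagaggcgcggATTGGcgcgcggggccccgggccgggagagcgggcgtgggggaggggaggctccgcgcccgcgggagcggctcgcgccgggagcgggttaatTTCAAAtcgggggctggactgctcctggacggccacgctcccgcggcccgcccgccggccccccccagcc
Cdc45: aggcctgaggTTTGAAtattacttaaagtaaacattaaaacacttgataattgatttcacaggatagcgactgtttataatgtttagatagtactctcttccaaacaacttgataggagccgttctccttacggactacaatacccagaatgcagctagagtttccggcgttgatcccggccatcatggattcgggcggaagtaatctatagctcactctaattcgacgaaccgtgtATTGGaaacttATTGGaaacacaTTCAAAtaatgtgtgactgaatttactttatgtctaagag
Cdc6 holds an E2F word from base -138 to -131 before the start, and Mcm3 holds a pair of them after it, from base 19 to 26 and from 38 to 45. The E2f8 and Cdc45 windows hold none of these 3 spellings, and hold CCAAT and CHR words. Of the 22 S phase genes 19 had a promoter in the RefSeq table, and an E2F word lay in 7 of them (36.8%), against 1.91% of 27025 promoters of all genes. CCAAT lay in 11 of 19 (57.9%), against 37.9% of all promoters, and CHR in 4 of 19 (21.1%), against 18.1%. In the 39 member promoters 98 words were found, and 4 pairs overlapped, 1 between different motifs (in Mcm7), 2 between E2F spellings (in Mcm5 and Mcm6) and 1 between CCAAT words on opposite strands (in Ube2c). These are matches of letters, and binding was not measured.

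The MCM genes encode the 6 subunits of the ring helicase that unwinds DNA at replication forks. After glycerol all 6 had negative log2 fold changes, -0.32 to -0.17, and after BaCl2 all 6 had positive ones, 0.18 to 0.43. After glycerol Mcm3 had 3959, 3394, 3735 and 3182 normalized counts in SMA libraries, against 4484, 3627, 4592 and 4107 normalized counts in WT libraries. After BaCl2 it had 88.9, 69.99 and 69.6 CPM in SMA libraries, against 55.7, 58.3 and 56.01 CPM in WT libraries. SMA and WT overlapped after glycerol (log2 fold change -0.24, SE 0.09, limma adjusted p = 0.168), and after BaCl2 Mcm3 rose without overlap (0.43, SE 0.09, edgeR adjusted p = 0.0318). After glycerol Mcm2 had 2717, 2355, 2779 and 2280.4 normalized counts in SMA libraries, against 3236, 2828, 3521 and 2916 normalized counts in WT libraries. After BaCl2 Mcm2 had 62.2, 51.4 and 52.5 CPM in SMA libraries, against 43.7, 47.02 and 44.7 CPM in WT libraries. The groups of Mcm2 did not overlap after either injury, SMA lying below WT after glycerol and above it after BaCl2, but neither difference passed (-0.30, limma adjusted p = 0.0987, and 0.29, edgeR adjusted p = 0.07003). After glycerol Mcm5 had 4683, 4080.4, 4777 and 3535 normalized counts in SMA libraries, against 5741, 4739.6, 5761 and 4948 normalized counts in WT libraries. After BaCl2 Mcm5 had 99.1, 84.9 and 85.3 CPM in SMA libraries, against 77.7, 76.95 and 77.1 CPM in WT libraries. SMA libraries 1 and 3 stood near WT library 2 after glycerol, and after BaCl2 SMA lay above WT without overlap. For Mcm4, Mcm6 and Mcm7 the log2 fold change was -0.20, -0.17 and -0.24 after glycerol with overlapping groups. It was 0.19, 0.21 and 0.18 after BaCl2 with every SMA library above every WT library, and none of these passed (edgeR adjusted p from 0.149 to 0.227). For Mcm4 the lowest SMA value after BaCl2 was 87.7 CPM and the highest WT value 84.7 CPM, so that the gap was narrow.

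Loading and firing of the helicase takes CDC6 and CDT1, which place it on DNA, and CDC45 and the GINS complex, which activate it. Cdc6 had the largest positive fold change of all members after BaCl2. After glycerol Cdc6 had 738, 623, 640.2 and 524 normalized counts in SMA libraries, against 839.6, 714, 946 and 762 normalized counts in WT libraries, a log2 fold change of -0.37 that did not pass (SE 0.12, limma adjusted p = 0.123). After BaCl2 Cdc6 had 14.02, 12.4 and 10.9 CPM in SMA libraries, against 8.48, 8.37 and 8.68 CPM in WT libraries, and rose without overlap (log2 fold change 0.55, SE 0.10, edgeR adjusted p = 0.0196). In SMA cells the mean of Cdc6 was thus 77.4% of the WT mean after glycerol and 146% of it after BaCl2. After glycerol Cdc45 had 1016, 892, 967 and 829.9 normalized counts in SMA libraries, against 1232, 972, 1149 and 1043 normalized counts in WT libraries, and SMA library 1 lay inside the WT range (-0.25, limma adjusted p = 0.169). After BaCl2 Cdc45 had 23.3, 19.4 and 20.7 CPM in SMA libraries, against 14.8, 16.1 and 17.5 CPM in WT libraries, and rose without overlap (0.39, SE 0.09, edgeR adjusted p = 0.0443). Cdt1, the licensing factor that is also kept in check by protein degradation, showed little difference after either injury. After glycerol it had 2521, 2831, 2744 and 2519 normalized counts in SMA libraries, against 2617, 2973, 2923 and 2649 normalized counts in WT libraries. After BaCl2 Cdt1 had 49.3, 47.8 and 49.97 CPM in SMA libraries, against 44.1, 51.6 and 49.1 CPM in WT libraries, with overlapping groups after both injuries (log2 fold changes -0.07 and 0.02). Gins2, a GINS subunit, had 1512, 1377, 1573 and 1294 normalized counts in SMA libraries, against 1765, 1819.7, 1738 and 1602 normalized counts in WT libraries, so that SMA lay below WT without overlap (-0.27, limma adjusted p = 0.0850). After BaCl2 Gins2 had 24.9, 20.7 and 22.6 CPM in SMA libraries, against 20.4, 22.2 and 19.5 CPM in WT libraries, with overlap. The exons of Gins2 share 67.3% of their bases with Gse1 on the opposite strand in GENCODE vM21, and since the strand setting of the counting is not given, its values are uncertain.

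Nucleotide supply rests on ribonucleotide reductase, whose subunits are Rrm1 and Rrm2, and on thymidylate synthase, Tyms. After glycerol Rrm2 had 4912, 4005, 5501 and 3165 normalized counts in SMA libraries, against 5803, 4791, 5851 and 4685 normalized counts in WT libraries, with SMA library 4 lowest and SMA libraries 1 and 3 inside the WT range (log2 fold change -0.29, limma adjusted p = 0.315). After BaCl2 Rrm2 had 93.1, 80.2 and 82.2 CPM in SMA libraries, against 69.95, 70.5 and 71.7 CPM in WT libraries, without overlap and just outside the threshold (0.27, edgeR adjusted p = 0.0551). Rrm1 had log2 fold changes of -0.20 after glycerol and 0.16 after BaCl2, neither of which passed (limma adjusted p = 0.134, edgeR adjusted p = 0.218). After glycerol Rrm1 had 7384, 6321, 7178 and 6370.0 normalized counts in SMA libraries, against 8050.1, 7294, 8463 and 7518 normalized counts in WT libraries. After BaCl2 Rrm1 had 149.7, 129 and 134 CPM in SMA libraries, against 122, 124 and 123 CPM in WT libraries. SMA library 1 overlapped the WT range after glycerol, and the groups stood apart after BaCl2. Tyms had the most negative value of the S phase set after glycerol (-0.37, limma adjusted p = 0.132), with 2376, 1719.7, 2386 and 1736 normalized counts in SMA libraries, against 2733, 2373, 2952 and 2487 normalized counts in WT libraries. SMA libraries 1 and 3 stood just above the lowest WT library, WT library 2. After BaCl2 Tyms had a log2 fold change of 0.12 with overlap.

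DNA synthesis and repair genes follow, Pola1 of the polymerase that primes new strands, Pcna and Rfc4 of the sliding clamp and its loader, Fen1 of the nuclease that trims Okazaki fragments, and Ung of the enzyme that removes uracil. After glycerol Ung had 271, 224, 247 and 243 normalized counts in SMA libraries, against 366, 264, 333 and 302 normalized counts in WT libraries (log2 fold change -0.35, limma adjusted p = 0.140), and SMA library 1 lay above WT library 2. After BaCl2 Ung had 6.12, 5.62 and 5.43 CPM in SMA libraries, against 3.97, 4.55 and 3.67 CPM in WT libraries, with SMA above WT in every library and no pass (0.49, SE 0.13, edgeR adjusted p = 0.0569). After glycerol Pola1 had 3149, 2585, 3042 and 2452 normalized counts in SMA libraries, against 3346, 3055, 3722 and 3259.9 normalized counts in WT libraries with overlap (-0.26, limma adjusted p = 0.147). After BaCl2 Pola1 had 54.04, 47.3 and 50.1 CPM in SMA libraries, against 42.2, 43.4 and 44.04 CPM in WT libraries without overlap (0.22, edgeR adjusted p = 0.0923). Ung and Pola1 thus had opposite signs after the 2 injuries. After glycerol Pcna had 13059.8, 12614, 11861 and 12554 normalized counts in SMA libraries, against 14005, 12177, 13893 and 13075 normalized counts in WT libraries, which overlap (-0.08, limma adjusted p = 0.394). After BaCl2 Pcna had 127, 106 and 100.3 CPM in SMA libraries, against 99.03, 99.5 and 96.2 CPM in WT libraries, where SMA library 1 was high and SMA library 3 only just above the WT libraries (0.17, edgeR adjusted p = 0.293). The log2 fold change of Rfc4 was -0.16 after glycerol and 0.11 after BaCl2, where it had 14.1, 10.95 and 13.1 CPM in SMA libraries, against 11.8, 12.2 and 11.5 CPM in WT libraries, with the lowest value in SMA library 2. Fen1 had log2 fold changes of -0.18 after glycerol and 0.38 after BaCl2, both with overlap. Its values are uncertain, since 84.2% of its exon bases lie over genes of the opposite strand, Tmem258 and Gm10143, in GENCODE vM21. The ratio of its WT mean in glycerol normalized counts to that in BaCl2 CPM was 1462, against 55.9 to 135 for the other 46 members.

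The switch into S phase is driven by E2F1 and by cyclin E, from Ccne1 and Ccne2, and E2f8 encodes a repressor that closes the E2F wave. After glycerol E2f8 had 701, 624, 703 and 605 normalized counts in SMA libraries, against 805, 687, 834 and 806 normalized counts in WT libraries, where WT library 2 lay below SMA libraries 1 and 3 (log2 fold change -0.25, limma adjusted p = 0.145). After BaCl2 E2f8 rose, with 11.01, 10.1 and 10.1 CPM in SMA libraries, against 7.90, 7.97 and 7.83 CPM in WT libraries (0.40, SE 0.09, edgeR adjusted p = 0.0339), and its groups did not overlap. E2f1 was the only S phase gene with a positive log2 fold change after glycerol (0.04), with 1675, 1554, 1617 and 1858 normalized counts in SMA libraries, against 1719, 1558, 1629.6 and 1619 normalized counts in WT libraries, and without SMA library 4 its value was -0.01. After BaCl2 E2f1 had 30.6, 27.4 and 25.6 CPM in SMA libraries, against 23.8, 26.2 and 22.997 CPM in WT libraries, which overlap (0.19, edgeR adjusted p = 0.242). Ccne1 had the smallest difference of the S phase genes after glycerol. After glycerol it had 726, 774, 697 and 735 normalized counts in SMA libraries, against 672, 811, 715 and 741 normalized counts in WT libraries (log2 fold change -0.00084). After BaCl2 Ccne1 had 14.7, 12.2 and 13.6 CPM in SMA libraries, against 12.05, 14.02 and 13.4 CPM in WT libraries (0.04), with overlap again. Ccne2 was spread widely in SMA cells after glycerol, with 1003, 845, 678 and 454 normalized counts in SMA libraries, against 930.0, 718, 989 and 1106 normalized counts in WT libraries, and SMA libraries 1 and 2 lay in the WT range while SMA library 4 had the lowest value (-0.37, SE 0.23, limma adjusted p = 0.368). After BaCl2 Ccne2 had a log2 fold change of 0.22, with SMA above WT in every library and no pass (edgeR adjusted p = 0.197).

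**Figure D3:**
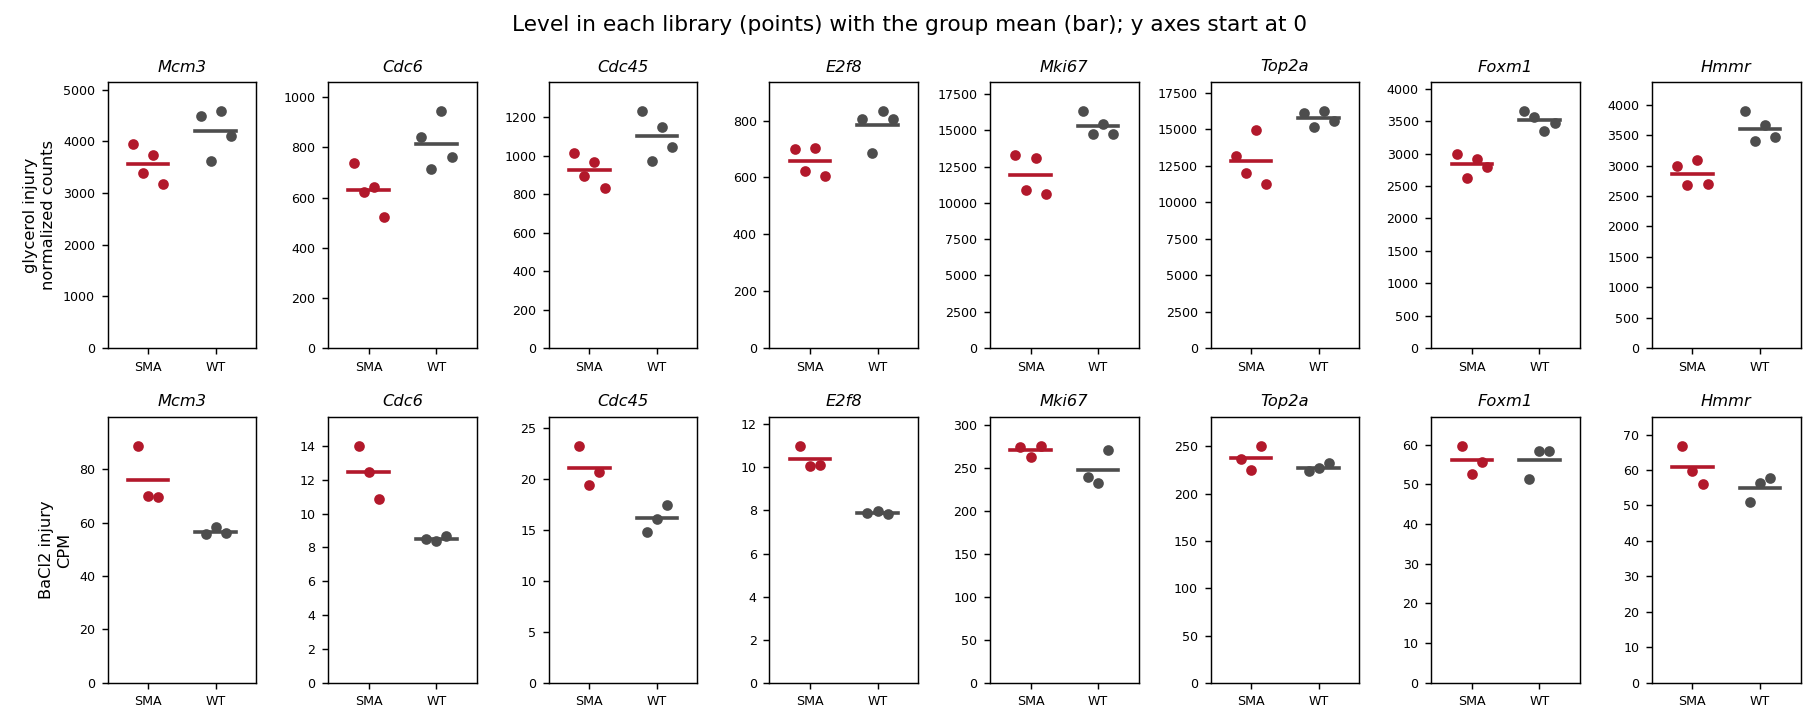
Levels of 4 S phase genes (Mcm3, Cdc6, Cdc45, E2f8) and 4 G2/M genes (Mki67, Top2a, Foxm1, Hmmr) in each library, after glycerol (top row, normalized counts) and after BaCl2 (bottom row, CPM); points are libraries, bars are group means and axes start at 0. After BaCl2 the SMA points of the 4 S phase genes lie above the WT points, and after glycerol the SMA points of the 4 G2/M genes lie below them.

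Counted over the S phase genes, every SMA library lay above every WT library after BaCl2 for 15 of 22, where this held for 12.2% of all genes tested. An unadjusted p under 0.05 was reached by 15 of 22, all positive, against 19.3% of all genes. SMA library 1 had the highest value of all 6 libraries for 20 of the 22, and without it 2 passed and the median log2 fold change was 0.14. Without SMA library 3, 7 passed, and 0 passed without SMA library 2 or any of the 3 WT libraries, while the number of all genes called ranged from 41 to 1577 over these fits. The members' counts were not set against the share of all genes in the same fit. Cdc6 and Mcm3 each passed in 2 of the 6 fits and Cdc45 and E2f8 in 1. DESeq2 called 8 of the 22, all positive, and 0 of the 25 G2/M genes. It also called more of all genes than edgeR did, a total given with the alternatives below. The authors' deposited table has 10 of the 22 positive and 0 negative at an adjusted p under 0.05. Of all 12279 genes with an adjusted p there, 951 were positive and 742 negative.

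Markers of other cells differed in the same libraries. After BaCl2 13 of 14 macrophage markers rose, with summed levels of 2895, 2313 and 1883 CPM in SMA libraries 1 to 3, against 1456, 1057 and 1137 CPM in WT libraries. SMA library 1 thus had the highest S phase level and the highest macrophage level. Of 12 FAP markers 5 fell (Ly6a, Lum, Col3a1, Dpt and Vcam1), 4 of 7 Schwann cell markers rose, and 0 of 8 endothelial markers changed by edgeR or by DESeq2, 1 of them at an unadjusted p under 0.05 by edgeR. Without WT library 3, 1 macrophage, 0 FAP and 0 Schwann cell markers passed, and without each of the others at least 6 macrophage markers did. Of 6 lymphocyte markers 2 were at 0 in every BaCl2 library, and of 4 neutrophil markers tested 1 (Csf3r) rose after each injury. Csf3r passed after glycerol in 2 of 8 fits that each left out 1 library (those without SMA library 3 or WT library 4), and after BaCl2 in 5 of 6, all but that without WT library 3. Of 6 pericyte and smooth muscle markers 1 rose after BaCl2, Rgs5 (log2 fold change 0.82, SE 0.17, edgeR adjusted p = 0.0264), which passed in 3 of 6 fits with a library left out, the ones lacking SMA library 1, SMA library 3 and WT library 1 in turn. The part of these cells in the S phase difference was not tested.

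G2/M promoters are shown because the CHR word, where the MuvB complex binds, is typical of this set. The 4 G2/M genes with the smallest p in either injury among those listed by RefSeq are printed for the same windows and build, with the same capitals. They lie at chr11:40733388-40733687 on the minus strand (Hmmr), chr10:69352863-69353162 on the minus strand (Cdk1), chr7:135716330-135716629 on the minus strand (Mki67) and chr9:61946750-61947049 on the minus strand (Kif23).
Hmmr: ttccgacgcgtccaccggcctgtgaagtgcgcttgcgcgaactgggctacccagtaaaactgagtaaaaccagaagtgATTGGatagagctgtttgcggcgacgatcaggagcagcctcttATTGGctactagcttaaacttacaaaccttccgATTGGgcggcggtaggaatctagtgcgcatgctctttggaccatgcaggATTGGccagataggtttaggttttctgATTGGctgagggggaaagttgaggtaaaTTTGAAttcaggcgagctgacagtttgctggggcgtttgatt
Cdk1: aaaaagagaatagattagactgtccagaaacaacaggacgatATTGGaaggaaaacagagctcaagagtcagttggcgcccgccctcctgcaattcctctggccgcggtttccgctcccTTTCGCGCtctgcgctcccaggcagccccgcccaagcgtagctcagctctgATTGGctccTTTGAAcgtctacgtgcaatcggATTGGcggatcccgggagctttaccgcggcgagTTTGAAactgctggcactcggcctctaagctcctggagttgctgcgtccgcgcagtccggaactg
Mki67: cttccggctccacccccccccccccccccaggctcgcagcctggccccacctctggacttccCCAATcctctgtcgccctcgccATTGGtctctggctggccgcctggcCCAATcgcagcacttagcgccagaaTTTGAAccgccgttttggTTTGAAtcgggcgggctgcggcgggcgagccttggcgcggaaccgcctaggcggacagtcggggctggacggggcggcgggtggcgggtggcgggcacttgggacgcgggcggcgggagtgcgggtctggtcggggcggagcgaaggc
Kif23: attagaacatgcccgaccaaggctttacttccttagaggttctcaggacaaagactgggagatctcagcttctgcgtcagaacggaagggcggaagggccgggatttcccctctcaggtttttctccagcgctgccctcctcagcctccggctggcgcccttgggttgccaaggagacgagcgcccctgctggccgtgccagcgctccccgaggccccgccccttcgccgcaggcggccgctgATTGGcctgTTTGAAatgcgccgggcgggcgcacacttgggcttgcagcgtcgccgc
Each of the 4 holds TTTGAA and at least 1 CCAAT word. Of the 25 G2/M genes 20 had a promoter in the table, and CHR lay in 14 of them (70%), against 18.1% of all promoters. CCAAT lay in 17 of 20 (85%), against 37.9%, and an E2F word in 1 (5%), that of Cdk1, against 1.91%. Whether a promoter has one of these words was not set against how its gene moved.

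FOXM1 and B-MYB (Mybl2) are the transcription factors of the G2/M wave. Foxm1 fell after glycerol, with 2996, 2631, 2916 and 2791 normalized counts in SMA libraries, against 3660.2, 3568, 3347 and 3478 normalized counts in WT libraries. The SMA libraries of Foxm1 lay below the WT libraries without overlap (log2 fold change -0.31, SE 0.06, limma adjusted p = 0.0328). After BaCl2 Foxm1 had 59.8, 52.7 and 55.7 CPM in SMA libraries, against 51.5, 58.4 and 58.3 CPM in WT libraries, and the groups overlapped (log2 fold change -0.00057, SE 0.07, edgeR adjusted p = 0.998). Mybl2 had 956, 751, 1240.3 and 674 normalized counts in SMA libraries, against 1289.6, 924, 1208 and 1177 normalized counts in WT libraries after glycerol, spread widely within SMA and with overlap (-0.37, SE 0.19, limma adjusted p = 0.264). After BaCl2 Mybl2 had 23.3, 19.5 and 19.2 CPM in SMA libraries, against 19.1, 18.5 and 18.2 CPM in WT libraries, with SMA just above WT (0.15, edgeR adjusted p = 0.380). E2F factors also drive Mybl2, and counting it with the S phase genes left the medians of both sets within the spread of the libraries.

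Mki67, which encodes the Ki-67 protein on mitotic chromosomes, and Top2a, the topoisomerase that untangles them, are the common marks of dividing cells. After glycerol Mki67 had 13273, 10874, 13062 and 10575 normalized counts in SMA libraries, against 16334, 14707, 15408 and 14747 normalized counts in WT libraries. SMA lay below WT without overlap, just outside the threshold (log2 fold change -0.36, SE 0.08, limma adjusted p = 0.0520). After BaCl2 Mki67 had 275, 263 and 276 CPM in SMA libraries, against 240.0, 232 and 271 CPM in WT libraries, with WT library 3 inside the SMA range (0.13, edgeR adjusted p = 0.326). After glycerol Top2a had 13191, 12016, 14959 and 11237 normalized counts in SMA libraries, against 16108, 15169.9, 16271 and 15593 normalized counts in WT libraries, again without overlap (-0.30, SE 0.08, limma adjusted p = 0.0753). After BaCl2 Top2a had 237, 225 and 251 CPM in SMA libraries, against 224, 227 and 232 CPM in WT libraries and overlapped (0.06, edgeR adjusted p = 0.643). In SMA cells Mki67 thus averaged 78.1% of the WT mean after glycerol and 110% after BaCl2.

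Cyclin A2 and the B cyclins with CDK1 make up the kinase that starts mitosis. All 4 of these genes lay lower in every SMA than in every WT library after glycerol, with log2 fold changes of -0.34 to -0.25. After glycerol Cdk1 had 2879, 2364, 2916 and 2415 normalized counts in SMA libraries, against 3448, 3249.9, 3355 and 3316 normalized counts in WT libraries (-0.34, SE 0.08, limma adjusted p = 0.0520). After glycerol Ccnb1 had 4278, 3387, 3994 and 3262 normalized counts in SMA libraries, against 4794, 4359.8, 5043 and 4433 normalized counts in WT libraries (-0.33, limma adjusted p = 0.0858). After glycerol Ccna2 had 4552, 3979, 4603 and 3478 normalized counts in SMA libraries, against 5101, 4664, 4957 and 4999 normalized counts in WT libraries (-0.26, limma adjusted p = 0.132). None of them passed, and SMA libraries 2 and 4 were the lowest each time. After BaCl2 Cdk1 had 53.97, 47.4 and 48.2 CPM in SMA libraries, against 50.7, 50.5 and 50.4 CPM in WT libraries (log2 fold change -0.02). Ccnb1 then had 64.3, 54.6 and 62.4 CPM in SMA libraries, against 61.4, 62.4 and 63.9 CPM in WT libraries (-0.05). Ccnb2 then had 62.2, 53.1 and 59.97 CPM in SMA libraries, against 60.03, 65.2 and 61.6 CPM in WT libraries (-0.09), one of the 3 lowest values of the set. SMA library 2 was the lowest library for all 3, and the groups overlapped. Ccna2 had a log2 fold change of 0.07 after BaCl2, also with overlap.

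Mitotic kinases and the spindle checkpoint include Plk1, Aurora A (Aurka) and Aurora B (Aurkb), the checkpoint kinases Bub1 and Bub1b, and the parts that end mitosis, Cdc20 and Ube2c, which act with the ubiquitin ligase APC/C. Bub1 had the most negative fold change of the members after glycerol, with 2105, 1763, 2031 and 1562 normalized counts in SMA libraries, against 2578, 2349.9, 2580.2 and 2282 normalized counts in WT libraries (log2 fold change -0.40, SE 0.10, limma adjusted p = 0.0626). Its groups did not overlap after glycerol, whereas after BaCl2 they did (0.07), with 36.04, 29.9 and 34.998 CPM in SMA libraries, against 32.5, 30.6 and 32.99 CPM in WT libraries. After glycerol Plk1 had 1808, 1531, 1960.1 and 1456 normalized counts in SMA libraries, against 2143, 1979, 2196 and 2041 normalized counts in WT libraries (-0.32, limma adjusted p = 0.1005). After BaCl2 Plk1 had 32.2, 26.4 and 31.01 CPM in SMA libraries, against 28.02, 28.7 and 29.5 CPM in WT libraries (0.05). Plk1 thus lay lower in every SMA library after glycerol and overlapped after BaCl2, and neither passed. After glycerol Aurkb had 1567, 1427, 1786 and 1363 normalized counts in SMA libraries, against 1835, 1707, 1975 and 1869 normalized counts in WT libraries, where SMA library 3 lay above WT library 2 (-0.27, limma adjusted p = 0.121). After BaCl2 Aurkb had the most positive fold change of the G2/M genes, with 35.1, 30.6 and 32.4 CPM in SMA libraries, against 28.1, 30.002 and 28.9 CPM in WT libraries (0.17, edgeR adjusted p = 0.216), without overlap. Aurka had log2 fold changes of -0.23 after glycerol, without overlap, and 0.0024 after BaCl2. After glycerol Bub1b had 3990.1, 3151, 3656 and 3110.2 normalized counts in SMA libraries, against 4019, 4205, 4163 and 3798 normalized counts in WT libraries (-0.23), with SMA library 1 inside the WT range. Ube2c had the least negative value of the G2/M genes after glycerol (-0.14), with 1928, 1669, 2049.7 and 1747 normalized counts in SMA libraries, against 1939, 2039, 2154 and 1986 normalized counts in WT libraries. SMA library 3 was higher than 3 of the 4 WT libraries for Ube2c. Cdc20 had log2 fold changes of -0.27 after glycerol, without overlap, and -0.02 after BaCl2, with overlap.

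Spindle genes include Hmmr, Tpx2 and Nusap1, whose proteins build and bundle microtubules, Kif11, the motor that pushes the poles apart, and Cenpe and Cenpf, which act at kinetochores. Hmmr fell after glycerol, with 2987, 2685, 3095 and 2696 normalized counts in SMA libraries, against 3900.2, 3399, 3663 and 3464 normalized counts in WT libraries (log2 fold change -0.33, SE 0.07, limma adjusted p = 0.0412). The groups of Hmmr did not overlap. After BaCl2 Hmmr had 66.9, 59.8 and 56.1 CPM in SMA libraries, against 51.01, 56.4 and 57.6 CPM in WT libraries, where SMA library 3 lay below WT libraries 2 and 3 (0.15, edgeR adjusted p = 0.345). After glycerol Cenpf had 3851, 3609, 3844 and 3366 normalized counts in SMA libraries, against 4873, 4181, 4711 and 4009 normalized counts in WT libraries (-0.27, limma adjusted p = 0.0805). After glycerol Kif11 had 3627, 3069, 3889.7 and 3057 normalized counts in SMA libraries, against 4171, 3997, 4189.6 and 4276 normalized counts in WT libraries (-0.29, limma adjusted p = 0.0822). Tpx2 and Cenpe likewise had each SMA library below each WT library after glycerol, with log2 fold changes of -0.29 and -0.30. After glycerol Tpx2 had 5725, 4925, 5536 and 4455 normalized counts in SMA libraries, against 6445, 5749, 6616 and 6322 normalized counts in WT libraries, so that SMA library 1 missed WT library 2 narrowly. After BaCl2 these 4 overlapped, at 0.10 (Cenpf), 0.03 (Kif11), 0.0055 (Tpx2) and -0.05 (Cenpe) on the log2 scale. Nusap1 had the most negative value of the set after BaCl2, with 28.1, 26.1 and 28.7 CPM in SMA libraries, against 30.5, 30.3 and 31.2 CPM in WT libraries (-0.15, edgeR adjusted p = 0.232), and SMA lay below WT without overlap. After glycerol Nusap1 also lay below WT in every SMA library (-0.25, limma adjusted p = 0.135).

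Cytokinesis, the splitting of the cell, takes Kif23, Kif20a, Prc1 and survivin, from Birc5. After glycerol Kif23 had 3091, 2649, 2610.4 and 2389 normalized counts in SMA libraries, against 3488, 3453, 3412 and 3199 normalized counts in WT libraries (log2 fold change -0.34, SE 0.08, limma adjusted p = 0.0520). After BaCl2 Kif23 had 47.7, 42.8 and 45.8 CPM in SMA libraries, against 48.1, 47.8 and 48.8 CPM in WT libraries (-0.09, edgeR adjusted p = 0.5001). Kif23 and Nusap1 were the only G2/M genes with SMA below WT without overlap after both injuries. After glycerol Kif20a had 5012, 4229.9, 4836 and 3935 normalized counts in SMA libraries, against 5723, 5506, 5662 and 5441 normalized counts in WT libraries (-0.32, limma adjusted p = 0.0605). After BaCl2 Kif20a had 57.5, 45.9 and 50.3 CPM in SMA libraries, against 45.3, 46.8 and 50.5 CPM in WT libraries, with SMA library 1 highest and overlap (0.11). The exons of Kif20a share 29.3% of their bases with Cdc23 on the opposite strand in GENCODE vM21, so that its values are uncertain too, as are those of Ube2c with 22.8%. After glycerol Birc5 had 2592, 2145, 2541 and 2036 normalized counts in SMA libraries, against 3161, 2869, 3015 and 2802 normalized counts in WT libraries (-0.35, limma adjusted p = 0.0638). After glycerol Prc1 had 5326, 4456, 5285 and 4616 normalized counts in SMA libraries, against 6147, 5652, 5812 and 5418 normalized counts in WT libraries (-0.23, limma adjusted p = 0.105). Both lay lower in every SMA library after glycerol. After BaCl2 their log2 fold changes were 0.02 (Birc5) and -0.02 (Prc1), with overlap.

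Counted over the G2/M genes, each SMA library lay below each WT library after glycerol for 21 of 25, where this held for 7.54% of all genes tested. Among the S phase genes it held for 2 of 22 (Mcm2 and Gins2), and in neither set did every SMA library lie above every WT library, which held for 6.59% of all genes. An unadjusted p under 0.05 was reached by 23 of 25 G2/M genes and 12 of 22 S phase genes, all negative, against 23.3% of all genes. The authors' deposited table has 17 of 25 G2/M and 2 of 22 S phase genes (Mcm2 and Gins2) negative at an adjusted p under 0.05. Of all 14075 genes with an adjusted p there, 734 were negative. SMA library 4 had the lowest value of all 8 libraries for 18 of the 25 and SMA library 2 for the other 7. Without SMA library 3, 17 G2/M and 2 S phase genes passed, and without any one of the other 7 libraries 0 G2/M genes passed, while the number of all genes called ranged from 0 to 1645. These member counts were not set against the share of all genes in the same fit. Foxm1 and Hmmr kept an adjusted p under 0.05 in 1 of these 8 fits. After BaCl2 every SMA library lay above every WT library for 2 of 25 G2/M genes (Aurkb and Mybl2) and below for 2 (Kif23 and Nusap1), where 12.2% and 13.1% of all genes did so, and 2 of 25 had an unadjusted p under 0.05 (Aurkb, positive, and Nusap1, negative).

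After glycerol, markers of other cells differed as well. Of 14 macrophage markers 5 rose by limma, 13 had a positive log2 fold change at an unadjusted p under 0.05, and 13 were positive in the authors' deposited table. An unadjusted p under 0.05 was reached by 23.3% of all genes, and 1025 of 14075 genes were positive in the authors' deposited table. The macrophage markers had summed levels of 208193, 240785, 115430 and 283288 normalized counts in SMA libraries 1 to 4, against 129446, 102069, 112752 and 132435 in WT libraries 1 to 4. SMA libraries 2 and 4, lowest for the G2/M genes, had the highest macrophage levels. SMA library 3 lay inside the WT range of the summed macrophage level, with 6 of the 14 markers above all 4 WT libraries and 1 below them, and its G2/M level was -0.16. Of 8 endothelial markers 3 fell by limma, 8 were negative at an unadjusted p under 0.05, and 7 were negative in the authors' deposited table, as were 734 of 14075 genes. Their summed levels were 12014 to 14688 normalized counts in SMA and 16540 to 23594 in WT libraries. Of 12 FAP markers 0 changed by limma, 2 of them at an unadjusted p under 0.05 and 1 in the authors' deposited table. None of the 14 macrophage and 8 endothelial markers passed when SMA library 1, 2 or 4 or one of WT libraries 1 to 3 was left out, and without SMA library 3 all 14 macrophage and 5 endothelial markers did. Of 6 pericyte and smooth muscle markers 0 changed by limma (3 at an unadjusted p under 0.05, and 2 in the authors' deposited table, Rgs5 and Mcam), and all 6 log2 fold changes were negative, with a median of -0.62. Their summed levels did not overlap, at 10079 to 13520 normalized counts in SMA and 14424 to 18698 in WT libraries. Of 6 Schwann cell markers tested 0 changed by limma, with 3 at an unadjusted p under 0.05 and 3 in the authors' deposited table. The part of these cells in the G2/M difference was not tested.

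Setting the 2 injuries against each other, the genotype effect after glycerol minus that after BaCl2 was negative for all 47 genes. The median difference was -0.49 for the S phase genes and -0.32 for the G2/M genes, on the log2 scale, and 0.01 for all genes. These comparisons share no library, but the tables were normalized separately and the injury is also the batch. With a z test 29 of 47 passed at an adjusted p under 0.05, 15 S phase and 14 G2/M genes, where 5% of 13960 genes passed with a negative difference, 5.53% with a positive one and 10.5% in all. That test gave 29.7% false calls on simulated data. With a t reference, chosen after seeing this, which gave 10.6% false calls, 14 of 47 passed, 9 S phase and 5 G2/M genes, where 1.92% of all genes passed with a negative difference, 1.88% with a positive one and 3.8% in all. By sign, 21 of 22 S phase genes were negative after glycerol and positive after BaCl2, and E2f1 was positive after both. Of the G2/M genes 14 were negative after glycerol and positive after BaCl2, and 11 were negative after both. Cell type markers were read in the same way. The median difference was -1.40 for 8 endothelial, -1.01 for 6 pericyte and smooth muscle, 0.39 for 12 FAP and 0.06 for 14 macrophage markers. By z 7 endothelial and 3 pericyte and smooth muscle markers passed, all negative, and 5 FAP markers, all positive. By t these numbers were 5, 2 and 1, and 0 macrophage markers passed either way. The part of these cells in the members' differences was not tested.

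The largest differences were those of the S phase genes. Cdc6 had -0.92 (SE 0.16, adjusted p = 7.66e-06 by z and 0.0115 by t), Ung had -0.85 (0.000214 and 0.0167) and Mcm3 had -0.66 (7.21e-05 and 0.0131). E2f8, Cdc45 and Mcm2 followed at -0.65, -0.63 and -0.60, with adjusted p = 0.0127, 0.0169 and 0.0152 by t. In the G2/M set the same test was passed by Mki67 (-0.50, SE 0.11, adjusted p = 0.000330 by z and 0.0194 by t), Hmmr (-0.48, 0.000345 and 0.0193), Bub1 (-0.47), Aurkb (-0.44) and Kif20a (-0.43). The differences nearest 0 were those of Ccne1 (-0.04) and Cdt1 (-0.09) in the S phase set and Nusap1 (-0.10) and Ube2c (-0.12) in the G2/M set, none of which passed either test. By z alone another 15 passed, among them Rrm2 (-0.56), Tyms (-0.49), Top2a (-0.37), Cdk1 (-0.33) and Foxm1 (-0.31). By the z test 19 to 35 members passed with 1 library left out, the fewest when SMA library 1 after BaCl2, or SMA library 2 or WT library 1 or 3 after glycerol, was left out, and 46 or 47 differences stayed negative. In the same fits the number of all genes called ranged from 1004 to 1969, of 13960 to 13985 tested.

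**Figure D4:**
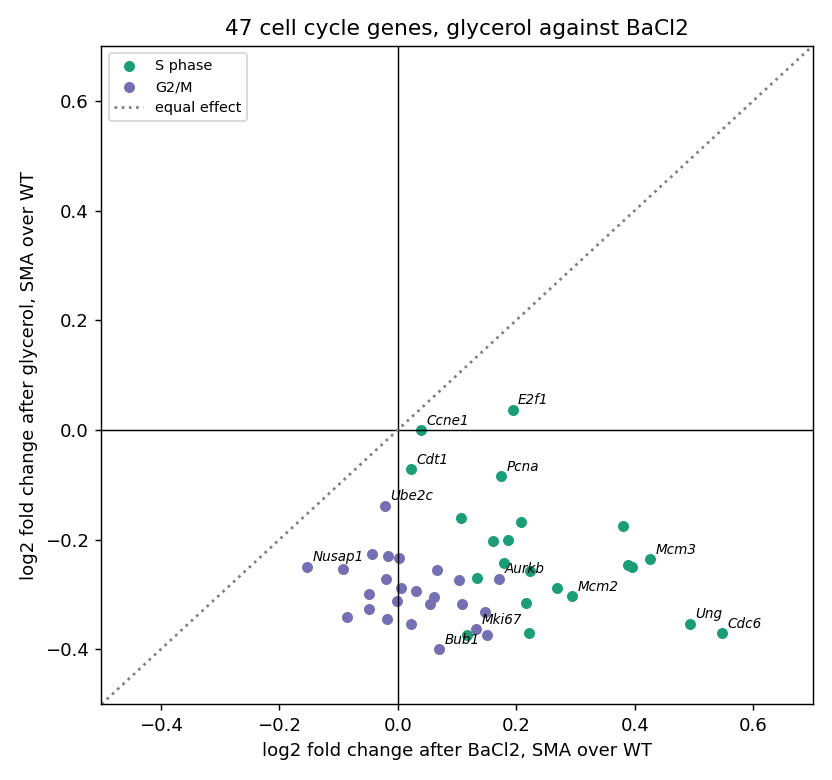
Log2 fold change of SMA over WT after glycerol (vertical axis) against that after BaCl2 (horizontal axis) for the 22 S phase genes (green) and the 25 G2/M genes (violet); the dotted line marks equal effects. All 47 points lie below the dotted line, Cdc6 and Ung farthest to the right and Bub1 lowest.

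Other genes of the cycle were read from lists of their own, written with earlier results of these data known. Of 26 further S phase genes tested after glycerol 0 changed by limma, with a median log2 fold change of -0.20. An unadjusted p under 0.05 was reached by 6 of the 26, all negative, a share like the 23.3% of all genes. The authors' deposited table has 3 of them negative, and 734 of all 14075 genes. After BaCl2 2 of 27 rose, Atad2 (log2 fold change 0.27, SE 0.06, edgeR adjusted p = 0.0456), a chromatin reader of dividing cells, and Uhrf1 (log2 fold change 0.25, SE 0.06, edgeR adjusted p = 0.0451), which keeps DNA methylation through replication, with a median of 0.15, where 2.73% of all genes rose. Of 30 origin and fork genes 0 changed after glycerol by limma (11 at an unadjusted p under 0.05, and 3 in the authors' deposited table) or after BaCl2 by edgeR (9 at an unadjusted p under 0.05, and 3 by DESeq2), with medians of -0.19 and 0.10. Over all genes, 23.3% had an unadjusted p under 0.05 after glycerol and 19.3% after BaCl2. Of 37 further G2/M genes 3 fell after glycerol, Nuf2 of the kinetochore (log2 fold change -0.45, SE 0.08, limma adjusted p = 0.0348), Tacc3 of the spindle (log2 fold change -0.38, SE 0.06, limma adjusted p = 0.0299) and Rangap1 of the Ran pathway (log2 fold change -0.29, SE 0.06, limma adjusted p = 0.0444), with a median of -0.23, where 1.17% of all genes fell. After BaCl2 1 of 37 rose, Gas2l3 (log2 fold change 0.40, SE 0.09, edgeR adjusted p = 0.0429), with a median of -0.03, a share like the 2.73% of all genes. DESeq2 and the authors' deposited table each called 1 positive and 1 negative of these 37. The medians of these lists had the signs of the members' medians, apart from the G2/M lists after BaCl2, which both lay near 0.

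Of the genes that push or hold G1, the shares that passed were small. Of 11 G1 drivers 1 rose after BaCl2, Cdk6, the cyclin D kinase (log2 fold change 0.61, SE 0.14, edgeR adjusted p = 0.0405), and 0 changed after glycerol by limma, with 4 at an unadjusted p under 0.05, against 23.3% of all genes, and 0 in the authors' deposited table. Cdk6 had a log2 fold change of 0.56 after glycerol with overlap, and the difference between the injuries was -0.05 (adjusted p = 0.932 by z). Of 21 brakes of the cycle 1 rose after each injury, where 1.7% of all genes rose after glycerol and 2.73% after BaCl2. The authors' deposited table called 2 of them after glycerol, both positive, and 3 positive and 1 negative after BaCl2. Over all genes it has 1025 of 14075 positive after glycerol, and 951 of 12279 positive and 742 negative after BaCl2. After glycerol it was Cdkn1c, an inhibitor of cyclin-dependent kinases that is expressed from the maternal copy, at 1718 ± 558 normalized counts in SMA and 869 ± 98.5 in WT libraries (SD, n = 4 each; log2 fold change 0.94, SE 0.19, limma adjusted p = 0.0393). After glycerol it had 1567, 1406, 1357 and 2545 normalized counts in SMA libraries, against 738, 864, 901 and 973 normalized counts in WT libraries, so that all 4 SMA libraries lay above the WT libraries. After BaCl2 it was Cdkn1a, the inhibitor that p53 turns on (log2 fold change 0.36, SE 0.09, edgeR adjusted p = 0.0479), with 174, 162 and 137 CPM in SMA libraries, against 130.1, 119.9 and 119 CPM in WT libraries. Cdkn1a was also higher in every SMA library after glycerol without passing (log2 fold change 0.41, SE 0.12, limma adjusted p = 0.0834; adjusted p = 0.0122 in the authors' deposited table), with 13563, 16949, 13707 and 20132 normalized counts in SMA libraries, against 11702, 11887, 11764 and 12379 normalized counts in WT libraries. Its difference between the injuries was 0.05 (adjusted p = 0.873 by z). The difference between the injuries was 1.20 for Cdkn1c (adjusted p = 0.0205 by t). Of the named genes of these lists, Nuf2, Rangap1 and Cdkn1c passed in 1 of 8 fits with a library left out, that without SMA library 3, and Tacc3 in 2. Atad2, Uhrf1, Gas2l3 and Cdkn1a passed in 1 of 6, that without SMA library 3, and Cdk6 in 2.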

How the data were processed

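Poly(A) RNA of FAPs was sequenced in 14 libraries (directional kit, per the labels' protocols). For BaCl2 injury the authors deposited whole-number read counts per gene. For glycerol injury they deposited normalized counts per gene, a signal scale whose depth is unknown, since at most 51.9% of low values fell on whole steps (tolerance 0.1). The authors' log2 fold changes and adjusted p-values are in the deposited tables and were only set beside the tests made here. Per the submitters' processing notes, fastp, Salmon, featureCounts and DESeq2 were used, without versions. Neither the genome build nor the strand setting is given in the sources used here. Another 6 columns of z-scores were not used.

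Counts were scaled by TMM (factors 0.953 to 1.05), filtered with filterByExpr and fitted with the quasi-likelihood test of edgeR 4.0.16 in R 4.3.3. Counts had been planned for glycerol as well, but its values were normalized, so log2(value + 1) was fitted with limma 3.58.1 with a mean-variance trend. Fold changes of low values are understated on that scale. Each fit ran over all genes, adjusted by Benjamini and Hochberg, with a threshold of 0.05, and all 47 members passed the filter. The glycerol minus BaCl2 difference of log2 fold changes was divided by its standard error and referred to a normal distribution (z) over 13960 shared genes. A t reference with Welch-Satterthwaite degrees of freedom was added after simulated data were seen. Library levels use log2(CPM + 0.1) after BaCl2.

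At folds of 1.5, 2 and 4, simulated data gave recoveries of 61.2%, 82.1% and 90.9% for glycerol (1.89% of calls false) and of 42.4%, 66.1% and 82.5% for BaCl2 (9.02% false). After BaCl2, counting error was 0.549% to 7.53% of a member's mean in SMA and 0.561% to 8.37% in WT libraries, highest for Fen1, and the spread of the 3 WT libraries lay below it for 8 of 47 members. CPM values are counts per M of the scaled library.

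The members and all gene lists were chosen with earlier results of these data known. Values per library were to be given for members past a test, for the 3 highest and 3 lowest fold changes per set and injury, and for Mcm2, Mcm3, Pcna, Cdt1, Ccne1, E2f1, Mki67, Top2a, Ccnb1, Cdk1, Plk1 and Foxm1. A few members that passed only the z test are given by their fold changes, and other lists name at most 4 members past the test. Alternatives were DESeq2 1.42.0, other scalings, filters and pseudocounts, a replicate block and leaving out each library.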

Additional observations from a re-analysis of the deposited data

Results flagged for a closer look

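In 14 members the genotype effect differed between the injuries by the t reference, where 3.8% of all genes passed, and all 14 differences (log2 fold change after glycerol minus that after BaCl2) were negative. These 14 also passed the z test, which uses the same difference and standard error and is less strict, so it adds no separate evidence. The t reference gave 10.6% false calls on simulated data. Among the S phase genes these were Cdc6 (-0.92), Ung (-0.85), Mcm3 (-0.66), E2f8 (-0.65), Cdc45 (-0.63), Mcm2 (-0.60), Mcm5 (-0.53), Pola1 (-0.48) and Rrm1 (-0.36). Among the G2/M genes they were Mki67 (-0.50), Hmmr (-0.48), Bub1 (-0.47), Aurkb (-0.44) and Kif20a (-0.43). The injury is also the batch in the labels, so a difference between injuries and a difference between batches cannot be told apart. Of 100 groups of 4 glycerol libraries looked at for a library far from the others, 0 held one past Dixon's critical value, where chance gives about 1 in 20.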

How the results depend on the processing

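Directions of the set medians held under every alternative run, except for the G2/M genes after BaCl2, whose median of 0.01 ranged from -0.018 to 0.073 with 1 library left out. Counts of calls did not hold. After glycerol, leaving out 1 library gave 0 to 1645 genes in all, 0 to 17 G2/M and 0 to 2 S phase genes, with set medians of -0.35 to -0.24 (G2/M) and -0.30 to -0.17 (S phase). Limma without a trend called 2 genes in all and 0 G2/M genes, and 201 genes passed in all when genes under the median mean were left out, where fewer genes are tested. With the replicate number as a block, 257 genes passed in all, 1 S phase and 3 G2/M genes. After BaCl2, leaving out 1 library gave 41 to 1577 genes in all and 0 to 7 S phase genes, with S phase medians of 0.14 to 0.26. Without the filter 1867 genes passed in all and 7 S phase genes, and DESeq2 gave 1692 and 8. The block gave 1144 genes in all, 3 S phase and 0 G2/M genes after BaCl2, and 33 members for the difference between injuries. The t reference gave 14 members for that difference, and leaving out 1 library gave 19 to 35 by z. Over all genes, the difference was called for 1940 with the block, 530 by t and 1004 to 1969 with 1 library left out. Same-numbered SMA and WT libraries deviated together with correlations of -0.01 to 0.26 after glycerol and -0.18 to 0.14 after BaCl2. Different-numbered ones had -0.26 to 0.22 and -0.19 to 0.14. With 3 or 4 libraries per group these values cannot decide whether the numbers pair the libraries. Values near 0 changed sign. Foxm1 after BaCl2 was 0.0049 with DESeq2 size factors or without the filter and 0.0042 by DESeq2, and -0.060 to 0.048 with a library left out. With a library left out after BaCl2, Ccne1 ranged from -0.023 to 0.11, Cdk1 from -0.076 to 0.021, Ccnb1 from -0.092 to 0.024 and Cdt1 from -0.040 to 0.072. After glycerol Ccne1 was 0.0060 with TMM scaling and -0.043 to 0.048 with a library left out, and E2f1 was -0.014 to 0.072. The causes of these shifts were not tested. Leaving out a library of 3 leaves a group of 2. Fen1 was low after BaCl2 (1.04 to 1.57 CPM), and 84.2% of its exon bases lie over genes of the opposite strand.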

Other observations

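Levels per length set the members side by side. In WT libraries after BaCl2, CPM per kilobase of exon (GENCODE vM21, which may not be the annotation used for counting) was highest for Pcna, the sliding clamp, at 40.9, and for Ccnb2, a B cyclin, at 40.7. The S phase genes ranged from 0.458 to 40.9 with a median of 7.10, and the G2/M genes from 3.76 to 40.7 with a median of 10.2. Fen1 was the lowest, and its exons overlap genes of the opposite strand.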
